A study of Mus musculus with 36 samples.

Results

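The 9 genes Insr, Irs1, Irs2, Pik3r1, Akt1, Akt2, Foxo1, Foxo3 and Grb10 carry the signal of insulin from the cell surface to the nucleus. They were chosen by symbol among the 24421 genes counted in mouse liver, not by their measured values, though earlier results of these data were known. All 9 passed the filter on low counts in every comparison. Insulin binds the insulin receptor, a tyrosine kinase that phosphorylates the insulin receptor substrate proteins. These recruit phosphatidylinositol 3-kinase, whose lipid product brings Akt to the membrane, and active Akt phosphorylates FoxO transcription factors and keeps them out of the nucleus. In hepatocytes this route lowers glucose output and raises lipid synthesis, and Irs2 is itself a gene that FoxO proteins turn on when insulin is low.

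Livers came from male C57BL/6J mice, 7 weeks old when obtained, that were all fed CDAHFD for 12 weeks, a high-fat diet made from amino acids and lacking choline, which makes the liver fatty and fibrotic. In the first experiment the mice were then switched to HFD (high-fat food) over 2 weeks and received a weekly injection under the skin of the human antibody fragment Fc at 4.3 mg/kg (n = 10) or of Fc(mML1)B3 at 5 mg/kg (n = 10). In the second experiment they ate a standard diet for 10 days and received Fc at 4.3 mg/kg (n = 9) or Fc(mML1)B3 at 5 mg/kg (n = 7) on days 1, 4 and 7. Fc(mML1)B3 is Fc with a grafted peptide, through which it binds and activates mouse Met, the receptor of hepatocyte growth factor, which itself signals through phosphatidylinositol 3-kinase and Akt. No group was free of CDAHFD or of an injected protein. Diet, number of doses, duration and experiment changed together, so a difference between the diets cannot be told apart from a difference between the experiments.

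Each mouse gave 1 library of 14949035 to 28466853 counted reads. Hepatocyte markers dominated as the label liver implies, the 10 markers summing to 86541 to 165510 CPM (reads per gene scaled to library depth). The library numbers in the deposited names ran in 5 series: under the HFD all Fc libraries formed series 1 and the Fc(mML1)B3 libraries series 2 (4 mice) and series 3 (6 mice), so series and protein cannot be told apart there, whereas under the standard diet 5 Fc libraries formed series 4, and 4 Fc and all 7 Fc(mML1)B3 libraries formed series 5. What the numbers stand for was not given in the sources used here. Genes of the circadian clock differed widely between Fc and Fc(mML1)B3 mice. Under the HFD, Arntl, which encodes the clock activator BMAL1, was at 0.621 to 2.12 CPM in Fc mice and 6.59 to 28.6 CPM in Fc(mML1)B3 mice, and 12 of 13 clock genes tested passed. On the standard diet its ranges were 2.29 to 6.42 CPM and 0.920 to 3.38 CPM, and 11 of 14 passed. The part of the clock in the results below was not tested.

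The promoters of the 4 members that passed the test under the standard diet show where known DNA motifs lie. RefSeq gave 250 bases before the start for 8 of the 9 genes on GRCm38.p6, the assembly that mm10 stands for, and Insr had no entry. The RefSeq start of Irs2 lies upstream of the model used for counting. Capitals mark an E-box (CACGTG), an insulin response element (TGTTTTG), a forkhead motif (TGTTTAC) or a D-box (TTATGNAA) on either strand. The sequences are on the minus strand of chr1:82291440-82291689 for Irs1, chr8:11008930-11009179 for Irs2 and chr13:101768218-101768467 for the upstream of 2 starts of Pik3r1, and on the plus strand of chr3:52268087-52268336 for Foxo1.
Irs1: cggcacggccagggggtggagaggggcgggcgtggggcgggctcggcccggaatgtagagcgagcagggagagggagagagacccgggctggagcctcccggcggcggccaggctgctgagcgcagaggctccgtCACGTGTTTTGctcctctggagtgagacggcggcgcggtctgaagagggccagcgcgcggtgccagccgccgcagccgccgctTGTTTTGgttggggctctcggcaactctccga
Irs2: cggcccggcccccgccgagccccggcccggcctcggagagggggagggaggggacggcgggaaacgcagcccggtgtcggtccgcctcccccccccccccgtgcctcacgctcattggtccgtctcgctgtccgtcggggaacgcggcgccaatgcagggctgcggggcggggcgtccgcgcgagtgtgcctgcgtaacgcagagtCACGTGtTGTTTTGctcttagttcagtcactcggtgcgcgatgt
Pik3r1: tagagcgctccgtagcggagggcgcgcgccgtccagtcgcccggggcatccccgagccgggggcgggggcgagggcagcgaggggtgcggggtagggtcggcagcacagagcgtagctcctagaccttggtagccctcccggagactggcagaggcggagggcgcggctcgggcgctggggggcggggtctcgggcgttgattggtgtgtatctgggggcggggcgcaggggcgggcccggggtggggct
Foxo1: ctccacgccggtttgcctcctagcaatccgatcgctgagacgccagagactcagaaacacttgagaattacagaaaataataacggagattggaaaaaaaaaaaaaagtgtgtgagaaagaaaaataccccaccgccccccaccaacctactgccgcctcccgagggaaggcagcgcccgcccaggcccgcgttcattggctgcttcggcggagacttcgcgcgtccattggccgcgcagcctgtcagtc
Both substrate genes carried an E-box beside an insulin response element, whereas Pik3r1 and Foxo1 carried none of the 4 motifs in these windows. In Irs1 the E-box ran from -115 to -110 before the start and overlapped an insulin response element from -111 to -105, with another at -32 to -26. In Irs2 the E-box ran from -44 to -39 and the insulin response element from -37 to -31. Of 32851 promoter windows of this length, 6.02% held the E-box, 5.56% the insulin response element, 3.17% the forkhead motif and 3.07% the D-box, and 7 windows (0.0213%) held the first and the second with starts at most 15 bases apart, those of Irs1, Irs2 and the related Irs4 among them. The motifs and this distance were chosen after the promoters and the expression values were seen, and a match describes letters, not a bound site. Among the other members, 1 of 2 windows of Akt1 held a forkhead motif at -161 to -155, and no window of Akt2, Foxo3 or Grb10 held any of the 4.

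The kinases were the most abundant members and the substrate Irs2 was usually the scarcest, when levels were set per kilobase of exon and per library depth (RPKM). Under the HFD, Akt1 and Akt2 led in Fc mice at 26.1 ± 2.32 and 25.6 ± 1.53 RPKM (SD, n = 10), and their order could not be separated, since Akt1 was above Akt2 in 4 of 10 Fc mice and 5 of 10 Fc(mML1)B3 mice. In the standard-diet mice Akt2, the Akt form tied to glucose control, was above Akt1 in all 16 mice, at 29.8 ± 1.54 RPKM against 22.0 ± 1.63 RPKM in Fc mice (SD, n = 9). Insr and Pik3r1 followed, and their order was not separable in Fc mice under the HFD (Insr higher in 5 of 10). Pik3r1 was above Insr in 9 of 10 Fc(mML1)B3 mice under the HFD and in 5 of 7 under the standard diet, whereas Insr was above Pik3r1 in all 9 Fc mice of the standard diet. Foxo1 came next in every group, at mean levels of 6.49 to 9.39 RPKM. Grb10, Irs1 and Foxo3 filled the next places, with means of 1.49 to 4.95 RPKM. The mean level of Irs2 was 0.767 to 1.83 RPKM, below every other member except Grb10 in Fc mice of the standard diet, where Irs2 was the higher in 5 of 9.

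**Figure D1:**
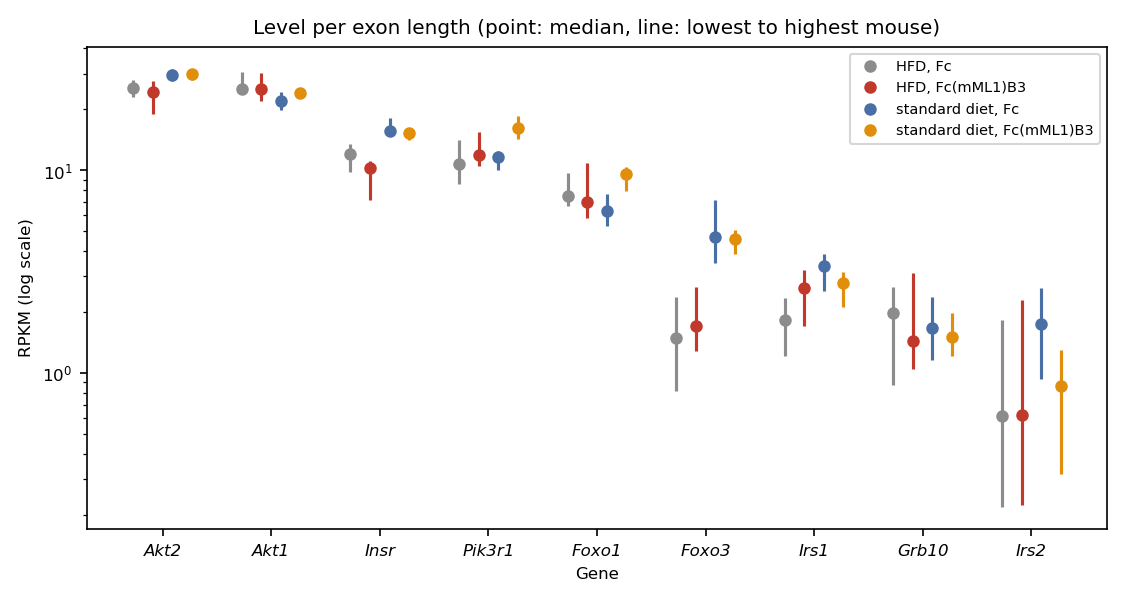
Level per exon length (RPKM, log scale) of the 9 genes in the 4 groups, with the median as a point and a line from the lowest to the highest mouse. Akt2 and Akt1 lie highest, and the Foxo3 ranges of the standard diet lie above those of the HFD.

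These levels rest on the exon models used for counting. For Irs2 (chr8:10986964-11008430 of mm10, minus strand) the model held 4012 of the 6323 exonic bases of GENCODE M21, and 51 of the 2334 bases of its last exon. For Foxo3 (chr10:42185786-42276742, minus strand) it held 38.2% of them, with 510 of 4455 bases of the last exon, and for Akt2 it held 45.4% against 65.6% for Akt1. The models of the members thus hold unequal shares of their exons, from that of Foxo3 to that of Irs1, which was complete at 9163 bases, and the order of RPKM between genes, Akt2 and Akt1 included, is subject to this. Irs2 had only 14 to 257 reads per library, and its model shared 162 bases with the antisense gene 9530052E02Rik, which had at most 2 reads in any library. Strand was ignored and reads overlapping 2 genes were left out, so reads in those bases counted for neither gene. The few reads of 9530052E02Rik therefore do not show how many were lost from Irs2.

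Under the HFD, 1 of the 9 genes rose with Fc(mML1)B3, the substrate Irs1, by 1.39-fold. Of all 13299 genes tested, 14.8% passed, 8.14% rose and 6.68% fell (edgeR's quasi-likelihood test, Benjamini-Hochberg adjusted p below 0.05), so 1 of 9 is a share near the background. Of all calls 54.9% were higher, beside 44.6% with upper-quartile scaling and 27.3% with library totals, and Irs1 passed as higher with each. On the standard diet 4 of the 9 passed, where 16.1% of 13570 genes did, 53.2% of them higher (37.6% with library totals). Pik3r1 rose by 1.42-fold and Foxo1 by 1.44-fold (8.56% of all genes rose), while Irs1 fell 1.23-fold and Irs2 2.23-fold (7.55% fell). With a fold change above 1.5 also required, 0 members passed under the HFD (4.0% of all genes) and 1, Irs2, under the standard diet (2.36%), and with a fold above 2 and an adjusted p below 0.1 the counts were again 0 (1.34%) and 1 (0.604%). The effect of Fc(mML1)B3 itself differed between the diets for 2 of the 9 (9.06% of 14105 genes), upwards for Foxo1 (4.66%) and downwards for Irs1 (4.4%), in a fit that shares its libraries with the other comparisons. Each fold change below is a fitted value from that test. A fall of a gene expressed in 1 cell type cannot be told apart, in whole liver, from fewer such cells.

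**Figure D2:**
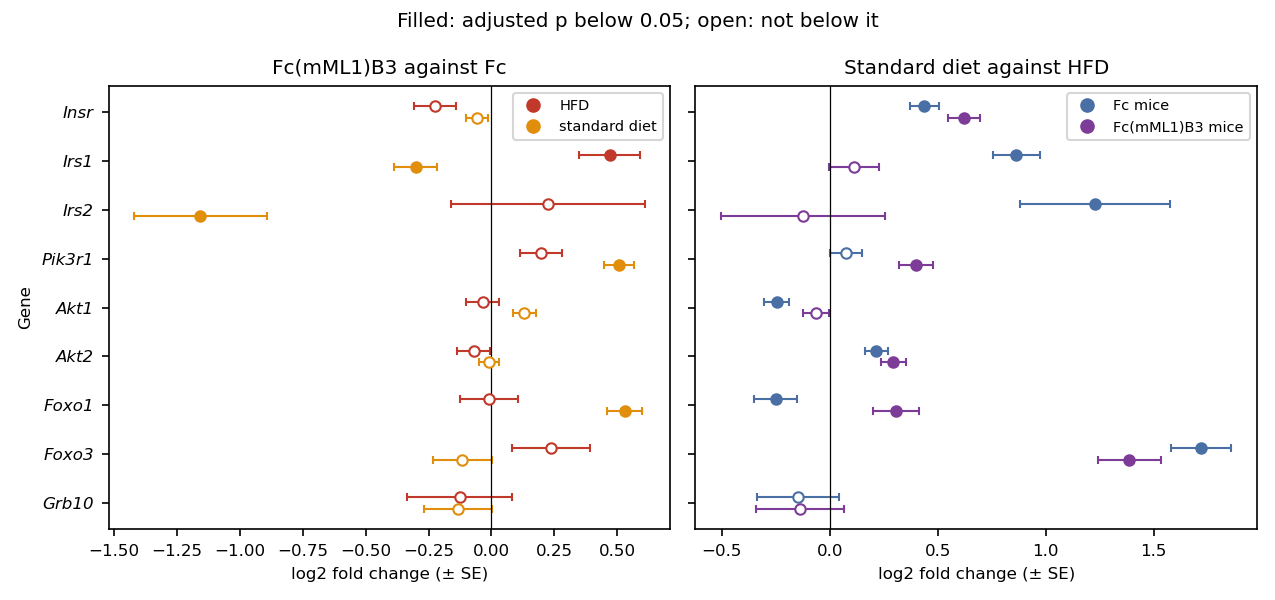
Fitted log2 fold changes (± SE) of the 9 genes, left for Fc(mML1)B3 against Fc within each diet and right for the standard diet against the HFD within each protein, filled where the adjusted p was below 0.05. Irs1 lies on opposite sides of 0 in the left panel, at 0.47 for the HFD and -0.30 for the standard diet, and Foxo3 lies farthest right in the right panel.

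Insr, which encodes the receptor itself (chr8:3150922-3279617, minus strand), did not pass the test within either diet. Between the diets it was higher under the standard diet, by 0.44 on the log2 scale in Fc mice (adjusted p = 2.2e-06), but by only 0.08 (adjusted p = 0.383) with the trend over exon length removed. Under the HFD its lowest, median and highest levels were 91.6, 112.5 and 126.7 CPM in Fc mice and 67.2, 96.2 and 104.6 CPM in Fc(mML1)B3 mice. The median of the Fc mice was above all 10 Fc(mML1)B3 mice, although the groups overlapped, as they did for every member under the HFD (0.91% of all genes did not). The log2 fold change was -0.22 (SE 0.08, adjusted p = 0.0706 by edgeR's quasi-likelihood test), and 4 of 11 other fits took it past the threshold. With the standard diet the levels were 137.9, 147.1 and 169.4 CPM in Fc mice and 132.3, 142.9 and 148.3 CPM in Fc(mML1)B3 mice, with a log2 fold change of -0.06 (SE 0.04, adjusted p = 0.404). Every mouse on the standard diet lay above every mouse given the same protein on the HFD.

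Irs1 (chr1:82233105-82291439, minus strand), a substrate that docks phosphatidylinositol 3-kinase on the active receptor, moved in opposite directions in the 2 experiments. Under the HFD its lowest, median and highest levels were 11.2, 16.7 and 21.6 CPM in Fc mice and 15.7, 24.0 and 29.6 CPM in Fc(mML1)B3 mice. In 7 of 10 Fc(mML1)B3 mice the level was above that of every Fc mouse. It rose by 0.47 on the log2 scale (SE 0.12, adjusted p = 0.0107 by edgeR's quasi-likelihood test). With the 4 libraries of series 2 alone the difference was 0.32 (adjusted p = 0.181, where 5.1% of all genes passed), and with the 6 of series 3 it was 0.57 (adjusted p = 0.00847, where 12.6% passed). Arntl had a median of 11.8 CPM in series 2 and 25.1 CPM in series 3, beside 1.14 CPM in Fc mice, and its part in the rise of Irs1 was not tested.

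In the other experiment Irs1 was at 23.2, 30.9 and 35.5 CPM in Fc mice and at 19.4, 25.4 and 28.8 CPM in Fc(mML1)B3 mice. The Fc median was above all 7 Fc(mML1)B3 mice, and 1 of them was below every Fc mouse. It fell by 0.30 on the log2 scale (SE 0.09, adjusted p = 0.0209 by edgeR's quasi-likelihood test). With the spread estimated over all 36 libraries the fall was as large and did not pass (-0.30, adjusted p = 0.152). The longest of 4 length classes of genes had a median of -0.0636 here, and with the trend over exon length removed Irs1 no longer passed (-0.22, adjusted p = 0.113), while Irs2, Pik3r1 and Foxo1 did (3 of 9, beside 15.1% of all genes). For Irs1 the difference between the diets in this effect was -0.75 on the log2 scale (SE 0.16, adjusted p = 0.00145, interaction term over all 36 libraries).

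Irs2, the other main substrate in liver, fell under the standard diet. There its lowest, median and highest levels were 3.75, 7.04 and 10.5 CPM in Fc mice and 1.27, 3.47 and 5.24 CPM in Fc(mML1)B3 mice. Every Fc(mML1)B3 mouse was lower than the Fc median, and 4 of 7 were lower than all 9 Fc mice. It fell by 1.16 on the log2 scale (SE 0.26, adjusted p = 0.00505 by edgeR's quasi-likelihood test). In series 5 alone, with 4 Fc mice, the fall was the same size and did not pass (-1.12, adjusted p = 0.055, where 6.86% of all genes passed), nor did it when the spread was estimated over all 36 libraries (-1.15, adjusted p = 0.0685).

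Under the HFD, Irs2 stood at 0.875, 2.46 and 7.35 CPM in Fc mice and 0.893, 2.48 and 9.23 CPM in Fc(mML1)B3 mice, with a log2 fold change of 0.22 (SE 0.39, adjusted p = 0.735). The medians of the groups lay close together, and the mice of each group were spread widely around them. The difference of its effect between the diets was -1.35 (SE 0.52, adjusted p = 0.0985). Per length, Irs1 exceeded Irs2 in every mouse. The median ratio of Irs1 to Irs2 was 3.18 and 3.86 in the Fc and Fc(mML1)B3 mice of the HFD and 1.70 and 3.62 in those of the standard diet.

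Pik3r1 (chr13:101680761-101768217, minus strand), which encodes the p85alpha regulatory subunit of phosphatidylinositol 3-kinase, rose under the standard diet without overlap between the groups. Its lowest, median and highest levels were 74.0, 85.9 and 91.4 CPM in Fc mice and 105.1, 118.9 and 137.4 CPM in Fc(mML1)B3 mice. Groups that do not overlap were found for 2.93% of all genes in this comparison. The rise was 0.51 on the log2 scale (SE 0.06, adjusted p = 8.7e-06 by edgeR's quasi-likelihood test), and it was 0.52 within series 5 (adjusted p = 0.000914). Under the HFD the levels were 63.2, 79.4 and 104.3 CPM in Fc mice and 77.4, 88.3 and 113.6 CPM in Fc(mML1)B3 mice, and the difference of 0.20 (SE 0.08, adjusted p = 0.11) did not pass unless Fc mouse 10, the highest of its group, was left out (0.25, adjusted p = 0.0333). The effects in the 2 diets differed by 0.32 (SE 0.11, adjusted p = 0.0532), and passed in 2 of 5 other fits, with upper-quartile scaling (0.32, adjusted p = 0.0467) and with the trend over exon length removed (0.36, adjusted p = 0.0282).

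Akt1 (chr12:112653821-112674276, minus strand) and Akt2 (chr7:27591560-27639453, plus strand), the kinases at the centre of the pathway, did not pass the test in either diet. Under the HFD Akt1 ranged from 59.3 to 82.8 CPM over both groups and Akt2 from 61.3 to 90.8 CPM, with log2 fold changes of -0.04 (SE 0.07) and -0.07 (SE 0.06). On the standard diet Akt1 was at 53.3, 59.5 and 65.5 CPM in Fc mice and 61.8, 65.1 and 67.4 CPM in Fc(mML1)B3 mice. The Fc median was below all 7 Fc(mML1)B3 mice, yet the difference of 0.13 (SE 0.05) fell short of the threshold with adjusted p = 0.063 by edgeR's quasi-likelihood test. It passed without Fc mouse 5 (0.15, adjusted p = 0.0393) or Fc mouse 7 (0.15, adjusted p = 0.0338), and with DESeq2 (0.13, adjusted p = 0.0475) or limma-voom (0.14, adjusted p = 0.0382). Akt2 differed by -0.01 (SE 0.04, adjusted p = 0.915).

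Foxo1 (chr3:52268337-52350109, plus strand), the FoxO protein that drives glucose output from liver, rose under the standard diet, again without overlap. Its lowest, median and highest levels were 29.4, 35.1 and 42.4 CPM in Fc mice and 44.2, 53.2 and 57.8 CPM in Fc(mML1)B3 mice. The rise was 0.53 on the log2 scale (SE 0.07, adjusted p = 3.0e-05 by edgeR's quasi-likelihood test) and 0.52 within series 5 (adjusted p = 0.00144). Under the HFD the levels were 37.2, 41.8 and 54.2 CPM in Fc mice and 32.3, 39.0 and 60.5 CPM in Fc(mML1)B3 mice, with a log2 fold change of -0.01 (SE 0.12, adjusted p = 0.963). The Fc(mML1)B3 mice of the HFD lay on both sides of the Fc mice, with 2 above all of them and 5 below all of them.

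This split went with the library series. The 4 libraries of series 2 had 42.3 to 60.5 CPM of Foxo1 and the 6 of series 3 had 32.3 to 43.7 CPM, against 37.2 to 54.2 CPM in the Fc mice. Taken apart, series 2 gave a log2 fold change of 0.32 (adjusted p = 0.0785) and series 3 gave -0.28 (adjusted p = 0.0464, edgeR's quasi-likelihood test). The part of the series in the Foxo1 values was not tested. Over all libraries the diets differed in this effect by 0.56 (SE 0.15, adjusted p = 0.0107).

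**Figure D3:**
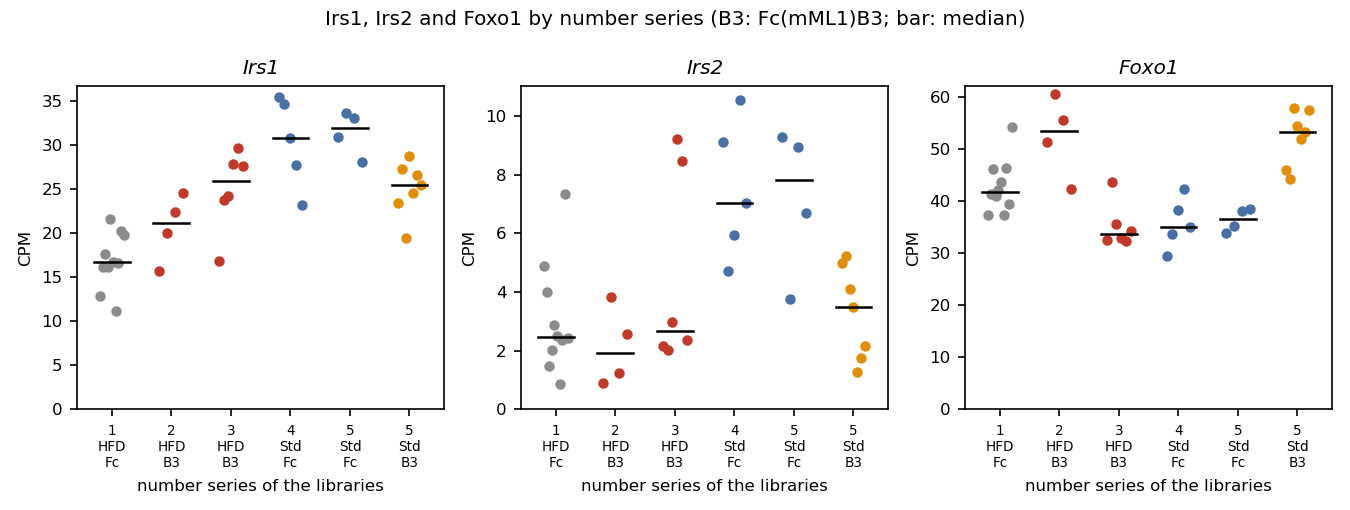
CPM of Irs1, Irs2 and Foxo1 in each mouse, grouped by library series 1 to 5, diet and protein, with a bar at the median (B3 is Fc(mML1)B3). Foxo1 of the HFD is high in series 2 and low in series 3, with the median of the Fc mice of series 1 between theirs, while in series 5 of the standard diet all Fc(mML1)B3 mice lie above all Fc mice.

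Foxo3, a FoxO gene with a lower level in liver, showed no difference between the proteins that passed and the farthest difference between the diets among the members. Under the HFD its lowest, median and highest levels were 2.36, 4.31 and 6.85 CPM in Fc mice and 3.70, 4.91 and 7.65 CPM in Fc(mML1)B3 mice (log2 fold change 0.24, SE 0.15, adjusted p = 0.31). In the other experiment they were 10.1, 13.6 and 20.5 CPM and 11.2, 13.2 and 14.8 CPM (-0.12, SE 0.12, adjusted p = 0.55). Every mouse of the standard diet lay above every mouse of the HFD. The ratio of Foxo1 to Foxo3 per length had medians of 5.46 and 4.13 in Fc and Fc(mML1)B3 mice of the HFD and 1.29 and 2.02 in those of the standard diet.

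Grb10 (chr11:11930499-12037420, minus strand), an adaptor that binds the active receptor and dampens its signal, did not pass in any comparison. Its levels ran from 4.53 to 16.0 CPM under the HFD and from 5.97 to 12.2 CPM under the standard diet, with log2 fold changes of -0.13 (SE 0.21, adjusted p = 0.723) and -0.13 (SE 0.13, adjusted p = 0.544). The ranges of its groups overlapped in both diets.

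**Figure D4:**
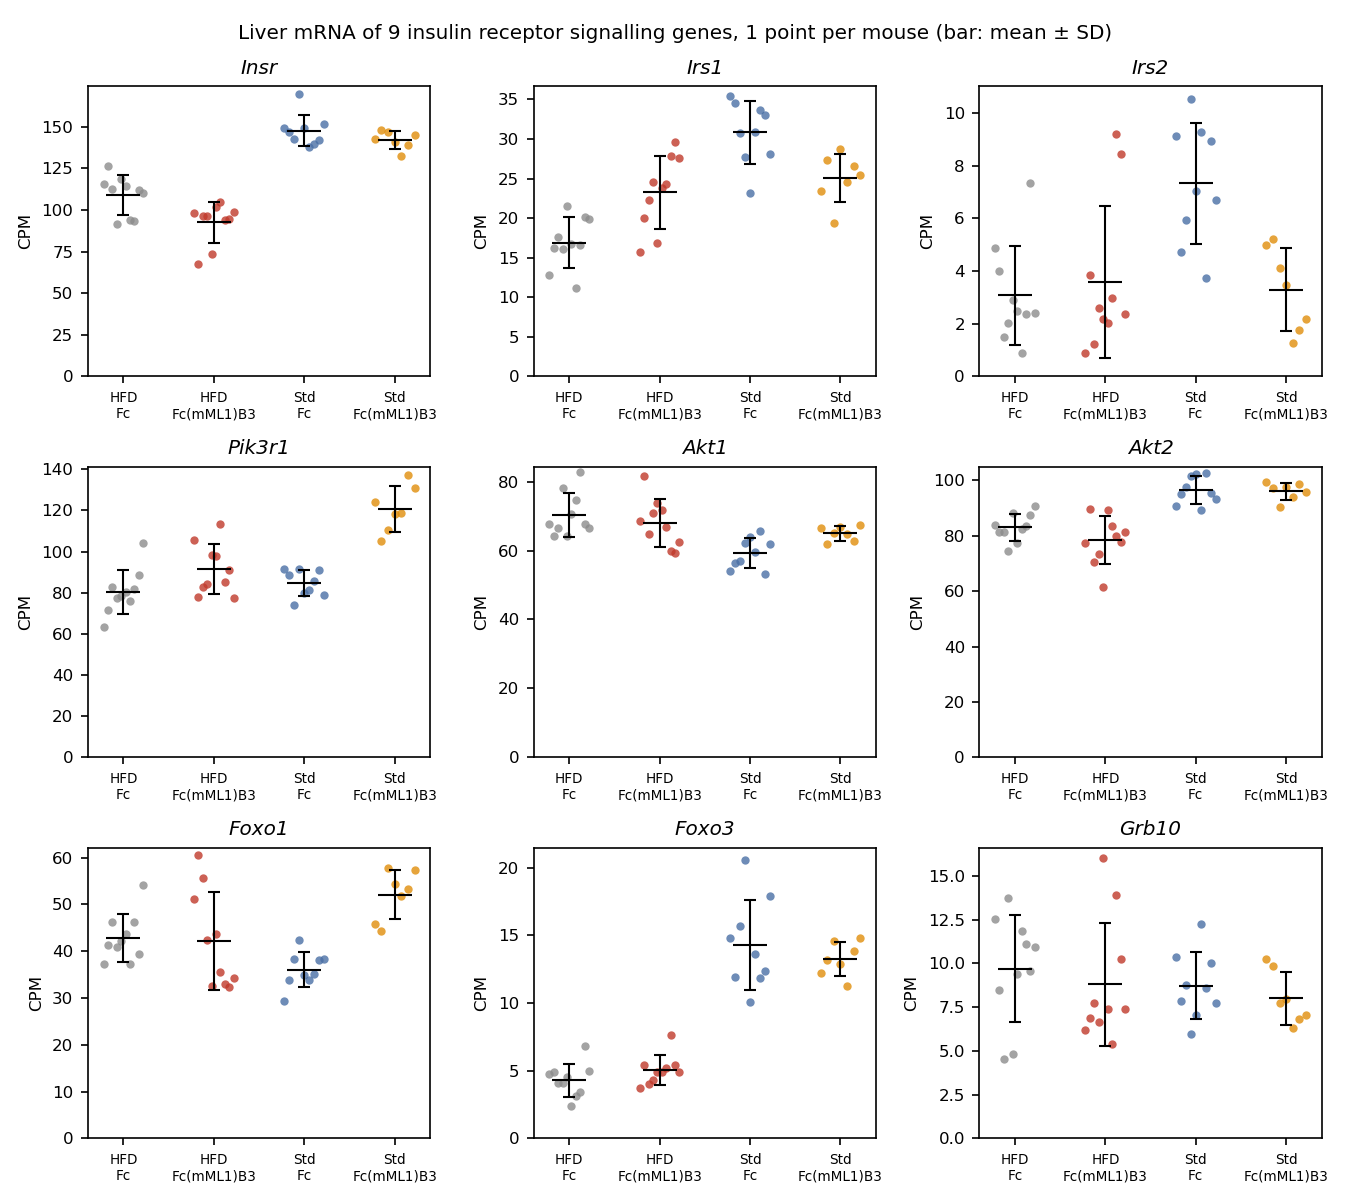
CPM of each of the 9 genes in each mouse of the 4 groups (Std is the standard diet), with the mean and SD. On the standard diet the groups do not overlap for Pik3r1 and Foxo1, and none of the 9 genes separates the groups of the HFD.

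The standard diet was set against the HFD within each protein. These comparisons share their libraries with those above. In Fc mice 7 of the 9 genes passed, where 47.9% of 14105 genes did, 48.6% of them higher (34.5% with upper-quartile scaling). Insr, Irs1, Irs2, Akt2 and Foxo3 were higher under the standard diet (23.3% of all genes were higher) and Akt1 and Foxo1 were lower (24.6%). In Fc(mML1)B3 mice 5 passed, where 38.5% of all genes did, 53.6% of them higher (36.8% with upper-quartile scaling), and all 5 were higher: Insr, Pik3r1, Akt2, Foxo1 and Foxo3 (20.7% of all genes were higher and 17.9% lower). With upper-quartile scaling Akt1 also passed there, as lower (-0.15, adjusted p = 0.0489), and Foxo1 did not.

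Foxo3 was higher by 1.72 on the log2 scale in Fc mice (SE 0.14, adjusted p = 3.5e-12) and by 1.39 in Fc(mML1)B3 mice (SE 0.15, adjusted p = 2.1e-09), or 3.29-fold and 2.62-fold. Irs2 was higher by 1.23 (SE 0.35, adjusted p = 0.00377) in Fc mice and differed by -0.13 (adjusted p = 0.815) in Fc(mML1)B3 mice, and Irs1 by 0.86 (SE 0.11, adjusted p = 5.5e-08) and 0.11 (adjusted p = 0.472). For both substrates the medians of the 2 diets lay closer together in Fc(mML1)B3 mice than in Fc mice. Insr was higher in both, by 0.44 (adjusted p = 2.2e-06) and 0.62 (adjusted p = 1.5e-08), and the groups did not overlap in either, a pattern of 9.42% and 9.9% of all genes, shared by Irs1 and Foxo3 in Fc mice and by Akt2 and Foxo3 in Fc(mML1)B3 mice. Foxo1 was lower by 0.25 (adjusted p = 0.0376) in Fc mice and higher by 0.31 (adjusted p = 0.021) in Fc(mML1)B3 mice. The first did not pass when every gene with 1 count was kept (-0.24, adjusted p = 0.0627), nor the second with upper-quartile scaling (0.22, adjusted p = 0.0941) or with the trend over exon length removed (0.087, adjusted p = 0.629). All these p-values are from edgeR's quasi-likelihood test.

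The diet comparisons moved with exon length over all genes. From the shortest to the longest of 4 equal classes of genes, the median log2 difference was -0.228, -0.104, 0.0268 and 0.21 in Fc mice and -0.162, -0.0718, 0.03 and 0.186 in Fc(mML1)B3 mice, whereas within a diet the medians ran from -0.0636 to 0.0418. Insr, Irs1 and Pik3r1 have the longest models among the members. With the trend removed, Insr in Fc mice differed by only 0.08 (adjusted p = 0.383), while the other 6 still passed, Irs1 at 0.51, Irs2 at 1.17, Akt2 at 0.21, Foxo3 at 1.75, Akt1 at -0.20 and Foxo1 at -0.46, and Pik3r1 passed as lower (-0.22), where 41.9% of all genes passed. In Fc(mML1)B3 mice 3 of the 5 still passed, Insr at 0.31, Akt2 at 0.27 and Foxo3 at 1.40, as 35% of all genes did, whereas Pik3r1 (0.13, adjusted p = 0.19) and Foxo1 did not. Under the HFD Irs1 still passed at 0.49 (18.3% of all genes), and in the interaction Pik3r1 (0.36) joined Irs1 and Foxo1 (10.4%).

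Other genes of the pathway were taken from 7 lists of 97 genes in all, 94 of them tested. For the HFD 13 of these passed (13.8%, beside 14.8% of all genes) and for the standard diet 29 (30.9%, beside 16.1%). Of the 29, 8 were in the list of insulin-induced genes. The lists were chosen with earlier results of these data known, so these shares describe the lists and are no independent test. Within a list, a count of 1 is near the share of all genes.

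Among 13 receptors and adaptors, 1 rose and 2 fell with the standard diet (8.56% and 7.55% of all genes). Gab1, a docking protein that Met also uses, rose by 0.44 on the log2 scale (SE 0.06, adjusted p = 6.6e-05 by edgeR's quasi-likelihood test), from a median of 17.9 CPM to 23.3 CPM, with all 7 Fc(mML1)B3 mice above all Fc mice. Sos1, an exchange factor of Ras, fell by 0.24 and the GTPase gene Nras by 0.16. In a list of 14 genes drawn up as brakes on the receptor or Akt, 0 rose in either diet. There 1 fell under the HFD (6.68% of all genes) and 5 fell with the standard diet (7.55%). The gene in common was Trib3, whose product can bind Akt. It fell by 1.24 under the HFD (SE 0.25, adjusted p = 0.00129) and by 1.41 under the standard diet (SE 0.14, adjusted p = 1.2e-06), where its median went from 11.4 to 4.33 CPM. The others were Grb7, by 0.29, and Ptprf, Ceacam1 and Grb14. The list median of the standard diet was -0.12, beside -0.01 for all genes.

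The genes of phosphatidylinositol 3-kinase, its lipid phosphatases, Akt and mTOR moved in both directions. Under the HFD the regulatory subunit Pik3r3 rose by 0.53 (SE 0.18, adjusted p = 0.0448) and its relative Pik3r2 fell by 0.24 (SE 0.05, adjusted p = 0.00397). The phosphatase Inpp5k also fell, by 0.24, and 11 of 14 genes did not pass (14.8% of all genes passed). With the standard diet the catalytic subunit Pik3cb rose by 0.34 (SE 0.06, adjusted p = 0.000682), with all 7 mice above all Fc mice, and the catalytic subunit Pik3ca fell by 0.17 (SE 0.05, adjusted p = 0.0264). Phlpp1, a phosphatase of Akt, fell by 0.29. In the Akt and mTOR list of 19 genes, 1 passed under the HFD (the kinase Prkcz, which fell by 0.34) and 4 under the standard diet. Of all genes 14.8% and 16.1% passed. Rps6kb1, the S6 kinase downstream of mTOR, rose by 0.31 (SE 0.05, adjusted p = 0.000259), and Rheb, which activates mTOR, rose by 0.13. Tsc1, which restrains mTOR, fell by 0.35 (SE 0.06, adjusted p = 0.000627) and Rictor, a subunit of the complex that phosphorylates Akt, by 0.29.

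Genes that FoxO proteins are known to turn on moved in both directions. Under the HFD, where Foxo1 did not pass, 4 of 16 rose and 1 fell (8.14% and 6.68% of all genes), with a list median of 0.25. Pdk4, a kinase that spares glucose, rose by 1.08 (SE 0.29, adjusted p = 0.0137 by edgeR's quasi-likelihood test) and Sod2, a mitochondrial antioxidant enzyme, by 0.32. Sesn3 and Mttp rose too, while the stress gene Gadd45a fell by 0.90 (SE 0.15, adjusted p = 0.000224). With the standard diet, where Foxo1 rose, 1 rose and 4 fell (8.56% and 7.55% of all genes), with a list median of -0.01. Igfbp1, which encodes a binding protein of insulin-like growth factors and is repressed by insulin, fell from a median of 29.3 to 9.76 CPM (adjusted p = 0.00361). Sesn3, a stress gene that restrains mTOR, fell by 0.56 (SE 0.11, adjusted p = 0.0015). Cdkn1b and Sesn1 fell too, and Sod2 rose by 0.18. The effects on Sesn3 and Igfbp1 differed between the diets, by -1.05 (adjusted p = 0.000187) and -1.96 (adjusted p = 0.0106), and that on Gadd45a differed the other way, by 1.15 (adjusted p = 0.000229). Among FoxO genes and partners, only Cited2, a coactivator partner, passed of the 8 tested, beside 14.8% and 16.1% of all genes. It rose by 0.35 under the HFD (adjusted p = 0.0351) and fell by 0.21 under the standard diet (adjusted p = 0.0391).

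Genes that insulin induces in liver rose together under the standard diet, 8 of 10 (8.56% of all genes rose), with a list median of 0.58. Thrsp, a regulator of fat synthesis, rose by 1.88 (SE 0.24, adjusted p = 2.6e-05 by edgeR's quasi-likelihood test), from a median of 211.2 to 905.3 CPM. Elovl6, a fatty acid elongase, rose by 1.09 (SE 0.14, adjusted p = 2.7e-05), with all 7 mice above all Fc mice. Acly, Srebf1, Fasn, Acaca and Pnpla3, all genes of fat synthesis or storage, rose too. Under the HFD none of these 7 genes passed, and the list median was -0.17. The effect differed between the diets for Srebf1 (0.76, adjusted p = 0.0046) and Elovl6 (1.22, adjusted p = 0.0212).

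**Figure D5:**
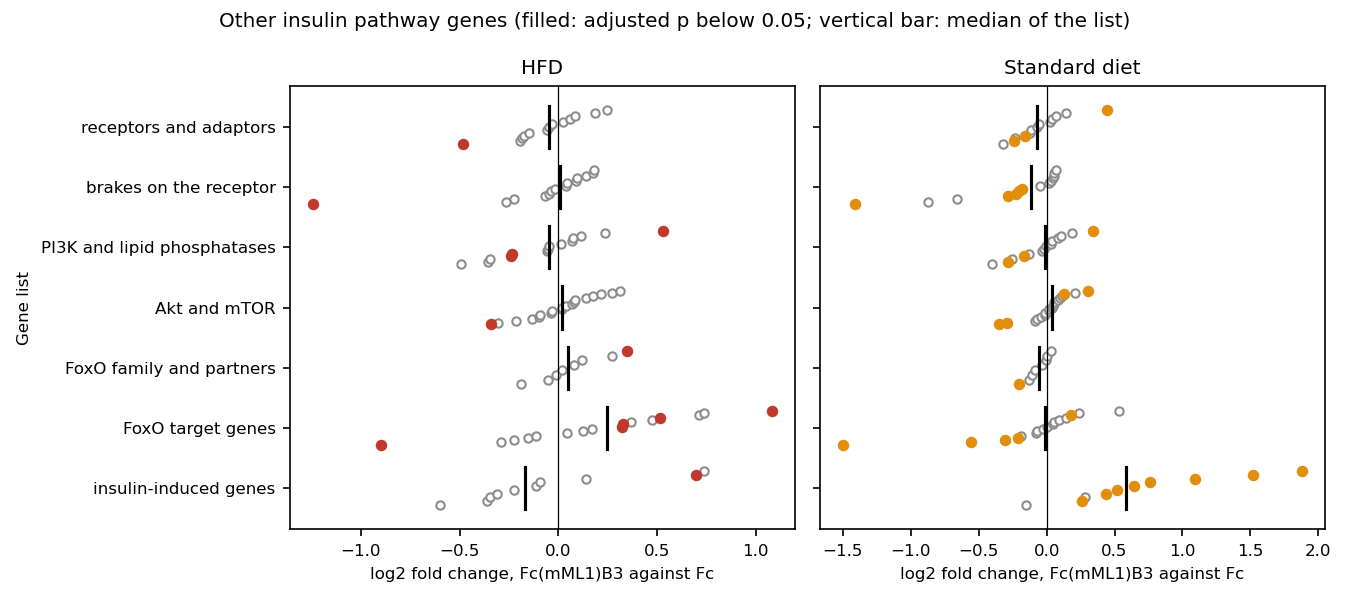
Log2 fold changes of Fc(mML1)B3 against Fc for the genes of the 7 pathway lists, left for the HFD and right for the standard diet, filled where the adjusted p was below 0.05, with a vertical bar at each list's median. The insulin-induced genes lie mainly right of 0 under the standard diet (median 0.58) and mainly left of it under the HFD (median -0.17).

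Markers of liver cell types were counted in the same comparisons. Within a diet, a count of 1 in a list of 8 or 10 markers is near the share over all genes. Under the HFD, where Irs1 rose, 1 of 10 hepatocyte markers rose, 4 of 5 neutrophil markers tested and 2 of 10 lymphocyte markers fell, and 0 of the macrophage, stellate, endothelial and bile duct markers passed, beside 8.14% of all genes higher and 6.68% lower. The 7 neutrophil markers in the files summed to 12.5 to 77.6 CPM in Fc mice and 10.1 to 20.5 CPM in Fc(mML1)B3 mice. In the standard-diet mice, where Irs2 fell and Pik3r1 and Foxo1 rose, 3 of 10 hepatocyte markers rose and 1 fell, 2 of 10 stellate cell markers, 1 of 10 macrophage markers and 1 of 8 bile duct markers fell, and 1 of 10 endothelial markers rose, beside 8.56% of all genes higher and 7.55% lower. The 10 stellate cell markers summed to 687.6 to 1049 CPM in Fc mice and 582.9 to 782.4 CPM in Fc(mML1)B3 mice. Against the HFD in Fc mice, 7 of 10 stellate and 8 of 10 lymphocyte markers were lower under the standard diet. So were 4 of 8 bile duct and 4 of 10 macrophage markers, and 4 of 10 hepatocyte markers were higher. Over all genes 24.6% were lower and 23.3% higher. In Fc(mML1)B3 mice, 5 of 10 stellate, 2 of 10 lymphocyte, 4 of 8 bile duct and 3 of 10 macrophage markers were lower. In these mice 2 of 10 hepatocyte and 1 of 10 lymphocyte markers were higher, beside 17.9% of all genes lower and 20.7% higher. For both proteins 3 of 10 endothelial markers were lower and 1 was higher. The part of these cell types in the results was not tested. Summed levels of the 10 hepatocyte markers ran from 93428 to 155083 CPM in Fc mice and 86541 to 165510 CPM in Fc(mML1)B3 mice of the HFD, and from 122125 to 154036 CPM and 130348 to 144996 CPM in those of the standard diet. Of 6 adipocyte markers 2 could be tested, 0 of them passed within a diet, and Lep was at 0 in every library.

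The members did not move as a block from mouse to mouse. Within groups, over the 36 libraries, Spearman's rho of log2 CPM was -0.62 between Irs1 and Akt1, 0.58 between Irs2 and Foxo3, -0.49 between Foxo1 and Grb10, and 0.23 between Irs1 and Irs2, as a description of libraries that share scaling and sequencing. Among 14105 genes, the gene most like Irs2 was Erbb3, which encodes a receptor of neuregulins (rho 0.80), and Erbb3 was also the second most like Foxo3 (0.75). The gene most like Foxo1 was Gin1 (0.83), followed by Angptl4, an inhibitor of lipoprotein lipase (0.77), and that most like Insr was Herc4 (0.80). Irs1 was most like Anks4b (0.79), Pik3r1 most like Ints10 (0.70), Akt1 most like the lysosomal enzyme gene Man2b1 (0.77), and Akt2 most like Furin, which encodes a protease that matures the insulin receptor among other proteins (0.80). The genes most like Grb10 were Itgb6 (0.82), Krt19 (0.80) and Grhl2 (0.79), of which Krt19 marks bile duct cells. The 8 bile duct markers summed to 186.1 to 892.2 CPM in Fc mice and 187.6 to 886.7 CPM in Fc(mML1)B3 mice of the HFD, and to 249.8 to 521.3 CPM and 197.9 to 431.3 CPM in those of the standard diet.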

How the data were processed

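Whole-liver RNA of 36 mice was sequenced from directional libraries. The deposited values are counts of reads per gene. Before deposit the authors trimmed reads with fastp, removed ribosomal RNA with Bowtie2 2.4.5, aligned to mm10 with STAR 2.7.10a and counted with featureCounts 2.0.3. Strand was ignored, a pair counted only with both mates aligned, each mate adding 1, and they left out reads with several alignments or overlapping 2 genes. Total counts were 14949035 to 28466853 (median 23558194.5), and since each mate added 1, the counted pairs were fewer. Counting error adds little except for genes of few reads, such as Irs2 (from 14 reads), Foxo3 (from 38) and Grb10 (from 86). No libraries of 1 group were duplicates (147 pairs, chi-square per degree of freedom at least 6.305). Groups came from the sample titles. Each library came from a separate mouse, so p-values measure the spread between the mice of these experiments.

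Each diet was tested on its own in R 4.3.3 by edgeR 4.0.16 (quasi-likelihood), with TMM scaling, filterByExpr and Benjamini-Hochberg adjustment over all genes tested, at 0.05. The SE came from the fold change and its F statistic. The interaction and the diet comparisons came from 1 fit of all 36 libraries, and no sample was dropped. CPM and RPKM were computed from the counts with 1 TMM scaling over the 36 libraries. Likeness used log2(CPM + 0.5) minus the group mean. On simulated counts with 200 genes changed 2-fold, the test recovered 94.0% with the design of the HFD and 97.5% with that of the standard diet. Of the calls, 4.08% and 6.25% were false. Smaller changes were not simulated, so the recovery does not apply to changes of members below 2-fold. Alternatives used DESeq2 1.42.0, limma 3.58.1 (voom), other scalings and filters, series alone and each library left out. Exon models were compared with GENCODE M21, and promoters were from RefSeq.

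All 9 members were described in every comparison. From each pathway list the 2 genes called higher and the 2 called lower with the smallest p within each diet were named with values. Further names complete counts, and Srebf1 and Gadd45a in the interaction were named after their values were seen. Members, lists and tests were chosen with earlier results of these data known. 0 columns of per-sample values were left unmapped. Some genes that the rule names are not reported here.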

Additional observations from a re-analysis of the deposited data

Results flagged for a closer look

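Of 36 sets of mice (9 genes in 4 groups), 3 held 1 mouse far from the rest, where chance gives about 1 in 20. Insr in Fc mouse 4 of the standard diet was at 169.4 CPM, with the other 8 mice at 137.9 to 151.6 CPM, a gap of 0.565 of the group's range. Foxo1 in Fc mouse 10 of the HFD was at 54.2 CPM, with the others at 37.2 to 46.3 CPM (0.467 of the range). Foxo3 in Fc(mML1)B3 mouse 8 of the HFD was at 7.65 CPM, with the others at 3.70 to 5.45 CPM (0.557 of the range). The diets differed in the effect of Fc(mML1)B3 on Irs1, by -0.75 on the log2 scale (adjusted p = 0.00145), and on Foxo1, by 0.56 (adjusted p = 0.0107), both by edgeR's interaction term, which passed for 9.06% of all genes. Over the 5 alternatives these ran from -0.77 to -0.70 for Irs1 and from 0.54 to 0.55 for Foxo1, and every adjusted p was below 0.05, the highest being 0.0399 for Foxo1.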

How the results depend on the processing

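Under the HFD the count of members passing was 2 with upper-quartile scaling, library totals, limma-voom or 1 fit over 36 libraries, where Insr joined Irs1. It was 2 with series 3 alone, where Foxo1 joined, 0 with series 2 alone and 0 when a fold above 2 (adjusted p below 0.1) or 1.5 was required. Leaving out each of 20 libraries gave 1 to 2, the higher value without Fc mouse 10, where Pik3r1 joined. Under the standard diet the count was 2 in 1 fit over 36 libraries (Pik3r1 and Foxo1) and 1 (Irs2) under either fold rule, and leaving out each of 16 libraries gave 4 to 5. In Fc(mML1)B3 mice the diet count was 3 with the trend over exon length removed, an alternative chosen after seeing the data.

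Direction turned for values that had not passed. Under the HFD these were Irs2 with limma-voom (-0.15), Foxo1 with a filter of 0.5 CPM (0.00098) or the length trend removed (0.028), Irs2 (-0.51), Akt1 (0.056) and Foxo1 (0.32) with series 2, and Grb10 (0.072) with series 3. Leaving out a library moved Foxo1 from -0.080 to 0.040 and Irs2 from -0.061 to 0.47 (below 0 without Fc(mML1)B3 mouse 8). Under the standard diet they were Insr (0.025) and Akt2 (0.00425) with the length trend removed and Akt2 in series 5 (0.011), and Akt2 moved from -0.025 to 0.00408 with a library left out. In the interaction Grb10 turned with DESeq2 (-0.00538) and with every gene of 1 count (-0.00295). In Fc mice Pik3r1 differed between the diets by -0.00997 with upper-quartile scaling and by -0.22 with the length trend removed, where it passed (adjusted p = 0.0161). In Fc(mML1)B3 mice Irs1 turned with the length trend removed (-0.19) and Irs2 with the replicate block (0.20). The cause was not tested.

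The replicate numbers of the titles did not pair the mice: correlations of same-numbered mice were -0.658 to 0.323 over 10 pairs under the HFD, with 2 mice most like their own number, and -0.181 to -0.0212 over 7 pairs under the standard diet, with 0. With the number as a block, Irs1 under the standard diet (-0.30, adjusted p = 0.0626) and Foxo1 between the diets in Fc mice (-0.24, adjusted p = 0.0626) no longer passed, and no other member's call changed. Library totals moved the median of all genes under the HFD to -0.10 and the share of higher calls from 54.9% to 27.3% (44.6% with upper-quartile scaling), and Irs1 still rose by 0.37. Under the standard diet that share went from 53.2% to 37.6%. Upper-quartile scaling moved the medians of the diet comparisons to -0.13 and -0.11, and their shares from 48.6% to 34.5% and from 53.6% to 36.8%. Counts of 14 to 257 reads limit what can be read of Irs2.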
